A study of Mus musculus with 6 samples.

Results

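RNA of 10 imprinted mouse genes outside the Dlk1-Meg3 region was measured in 6 libraries. The genes were Igf2, H19, Cdkn1c, Phlda2, Mest, Peg3, Ndn, Snrpn, Impact and Grb10, and they were found by matching Ensembl gene IDs to symbols. All 10 were in the count tables, which list 37620 genes in all, and all 10 passed the filter on low counts. The 2 Phc1-KO libraries came from cells with the genotype Phc1-/-, derived from the J1 mouse embryonic stem cell line. The 2 NPC libraries came from wild-type neural progenitor cells made from J1 cells by differentiation in culture. The 2 ESC libraries came from wild-type J1 embryonic stem cells, grown with LIF and serum on inactivated embryonic fibroblast feeders that were depleted before use. Phc1 encodes a Polycomb group protein. How its alleles were disrupted, and from how many clones the cells came, is not given in the sources used here.

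An imprinted gene is transcribed mainly from the chromosome copy inherited from one parent, because DNA methylation laid down in the egg or the sperm marks one copy at a control region. Control regions keep this methylation after fertilization with the help of the zinc finger protein ZFP57 and its partner TRIM28, and many imprinted genes act on fetal growth. Among the 10 genes, Igf2, Mest, Peg3, Ndn, Snrpn and Impact are transcribed mainly from the paternal copy, and H19, Cdkn1c, Phlda2 and Grb10 mainly from the maternal copy, although Grb10 is paternal in neurons. The counts do not separate the parental copies, so every value here is the sum of both and imprinting itself was not measured.

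Reads counted in genes numbered 19224273 and 21893821 for Phc1-KO, 15226214 and 15336155 for NPC, and 15766448 and 16018670 for ESC. The pairs differed in closeness. The spread beyond counting error, as a coefficient of variation, was 18.1% for Phc1-KO, 27.5% for NPC and 1.98% for ESC. The ESC pair thus stood near counting error, with a chi-square per degree of freedom of 1.41, against 43 for NPC and 46.2 for Phc1-KO. Fits with the ESC pair counted as 1 library are therefore given below. The entry for cell type of the Phc1-KO libraries reads NPC, whereas the title and design call the cells ESC. Pou5f1, a pluripotency factor, averaged 540 CPM (read counts relative to library size, with TMM scaling) in Phc1-KO, 1.31 in NPC and 351 in ESC. Nanog averaged 124 CPM in Phc1-KO, 0.457 in NPC and 221 in ESC, and Sox2 283, 89.3 and 349. Of the 6 listed pluripotency markers only Nanog passed the edgeR test in Phc1-KO against ESC (-0.83, SE 0.16, adjusted p = 0.0245). There 10.7% of all genes tested passed. The Nanog call did not hold without ESC 1 or without ESC 2. Olig2, a neural progenitor factor, averaged 0.123 CPM in Phc1-KO, 157 in NPC and 0.123 in ESC, and Nes, another marker of these cells, averaged 135 CPM in Phc1-KO, 734 in NPC and 161 in ESC. Pax6, a neural and eye transcription factor on the same list, went the other way, with 21.5 and 20.8 CPM in Phc1-KO, 21 and 16.9 in NPC, and 4.44 and 4.68 in ESC; it was higher in Phc1-KO than in ESC (2.21, SE 0.20, adjusted p = 0.00327) and did not pass against NPC. Phc1 itself held 326 and 267 CPM in Phc1-KO, against 40.8 and 34.6 in NPC and 460 and 461 in ESC, so RNA counted to the gene remained in the cells labelled as knock-out.

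The promoters printed here belong to the 4 genes whose RNA differed most between NPC and ESC among those with a window in the table, 1 maternally expressed gene that was almost silent in NPC and 3 paternally expressed genes that were high there. RefSeq windows of 250 bases before to 50 after the start, in the GRCm38.p6 build, were used for 7 of the 10 genes, as 16 windows. None was used for H19, Cdkn1c and Impact, so the counts of windows and matches below do not cover these genes. For each gene the window with the most CG pairs is printed 5′ to 3′, with CG pairs, the site of most DNA methylation, in capitals.
Phlda2, chr7:143502475-143502774, minus strand: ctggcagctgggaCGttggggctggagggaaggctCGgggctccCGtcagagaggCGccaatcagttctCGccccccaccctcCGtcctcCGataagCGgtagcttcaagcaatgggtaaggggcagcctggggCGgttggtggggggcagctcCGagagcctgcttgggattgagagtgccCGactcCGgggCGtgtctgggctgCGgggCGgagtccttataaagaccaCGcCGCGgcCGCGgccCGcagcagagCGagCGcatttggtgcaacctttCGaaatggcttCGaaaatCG
Igf2, chr7:142658755-142659054, minus strand: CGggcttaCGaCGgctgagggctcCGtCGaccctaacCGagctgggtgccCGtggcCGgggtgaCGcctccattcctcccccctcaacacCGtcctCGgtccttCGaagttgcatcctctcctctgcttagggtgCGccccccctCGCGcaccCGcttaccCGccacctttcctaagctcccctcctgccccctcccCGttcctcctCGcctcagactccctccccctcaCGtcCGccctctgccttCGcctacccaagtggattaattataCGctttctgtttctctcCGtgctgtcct
Mest, chr6:30737800-30738099, plus strand: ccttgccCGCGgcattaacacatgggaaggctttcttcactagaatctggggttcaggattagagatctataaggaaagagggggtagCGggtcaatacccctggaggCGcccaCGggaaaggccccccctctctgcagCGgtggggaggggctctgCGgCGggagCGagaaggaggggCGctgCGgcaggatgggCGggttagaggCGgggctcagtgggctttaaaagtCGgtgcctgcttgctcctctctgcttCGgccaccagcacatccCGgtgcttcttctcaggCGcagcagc
Ndn, chr7:62348027-62348326, plus strand: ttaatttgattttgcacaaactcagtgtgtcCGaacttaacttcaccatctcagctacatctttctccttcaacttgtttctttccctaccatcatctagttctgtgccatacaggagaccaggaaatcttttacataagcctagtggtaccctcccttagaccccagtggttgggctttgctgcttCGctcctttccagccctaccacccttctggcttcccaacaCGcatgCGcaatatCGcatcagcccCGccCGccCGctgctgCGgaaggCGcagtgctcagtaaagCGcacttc
The Phlda2 window held 26 CG pairs, the Igf2 window 24, the Mest window 17 and the Ndn window 11. Of all 32851 windows, 16.9% held at least as many as the Phlda2 window, 20% as the Igf2 window, 31.4% as the Mest window and 41.4% as the Ndn window, and the median was 7. The hexamer bound by ZFP57, TGCCGC or GCGGCA on the other strand, contains a CG pair. It was in 11.6% of all windows and in 5 of the 16 windows of these genes. The 5 were a pair of Mest windows that overlap almost wholly and 1 window each of Igf2, Snrpn and Grb10; the Phlda2, Igf2 and Ndn windows printed here do not hold it. A match is a description of the letters and not a binding site.

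NPC were compared with ESC, Phc1-KO with ESC, which are the comparisons the design names, and Phc1-KO with NPC because of the label conflict. Tests were edgeR quasi-likelihood F tests over 17489 genes with Benjamini-Hochberg adjustment and a threshold of 0.05. In NPC, Igf2, Mest, Peg3, Ndn, Cdkn1c and Grb10 were higher than in ESC, and Phlda2, Snrpn and Impact were lower; H19 did not pass. That is 6 of 10 genes higher, against 30.4% of all genes tested, and 3 lower, against 30.9%; 61.3% of all genes were called in either direction. In Phc1-KO, Mest, Ndn and Impact were higher than in ESC, against 4.91% of all genes, and Igf2, H19 and Peg3 were lower, against 5.75%; 10.7% were called in all. Cdkn1c, Phlda2, Snrpn and Grb10 did not pass. The signs of these 6 changes held in all 15 alternatives, but the calls did not hold when libraries were left out. None of the 10 genes was called without ESC 1, without ESC 2 or without Phc1-KO 2, where 6, 6 and 7 of them had an unadjusted p under 0.05; Igf2 and Impact were called without Phc1-KO 1, and 7 genes without either NPC library. With the ESC pair counted as 1 library, 0 were called and 6 had an unadjusted p under 0.05. DESeq2 on all libraries called 7 of the 10 and was not run with libraries left out. A group left with 1 library is assumed to vary like the others. In Phc1-KO against NPC, 3 genes were higher, against 32.3% of all genes, and 6 were lower, against 32.7%, with 64.9% called in all. The comparisons with ESC share the ESC libraries, so Phc1-KO against NPC is the test of the difference between them.

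**Figure D1:**
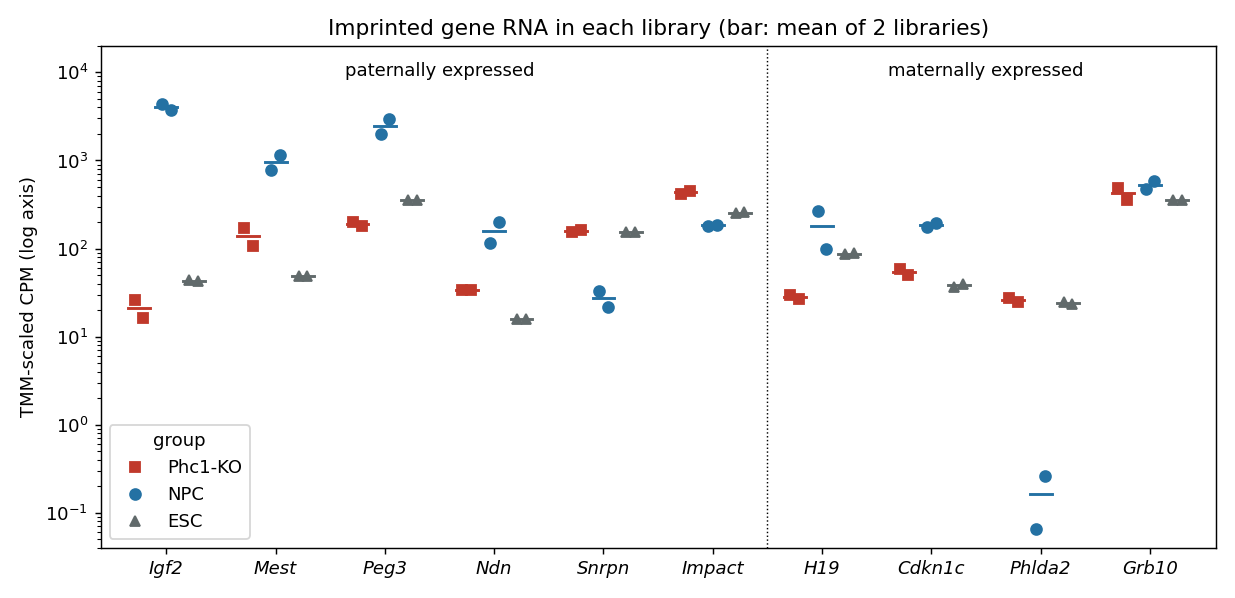
RNA level of each gene in each library, in TMM-scaled CPM on a log axis; squares are Phc1-KO, circles NPC, triangles ESC, and bars the mean of 2 libraries. Igf2 stands at 4357 and 3746 CPM in NPC and Phlda2 at 0.0658 and 0.26, while both lie between 16.4 and 43.6 CPM in the other 4 libraries.

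Igf2 and H19 lie 72.6 kb apart on chromosome 7 and share enhancers; a control region between them, bound by CTCF on the maternal copy, gives the enhancers to H19 there and to Igf2 on the paternal copy. Igf2 encodes the fetal insulin-like growth factor II (ENSMUSG00000048583, mm9 chr7:149836673-149852721, minus strand, 8 exonic blocks). It held 25.8 and 16.4 CPM in Phc1-KO, 4357 and 3746 in NPC, and 43.6 and 42.3 in ESC. The 3 groups did not overlap, and NPC stood far above the rest. Igf2 rose 94.3-fold in NPC over ESC (log2 fold change 6.56, SE 0.27, adjusted p = 8.77e-06). It was 2.04-fold lower in Phc1-KO than in ESC (-1.03, SE 0.22, adjusted p = 0.0328), and 192-fold lower in Phc1-KO than in NPC (-7.59, SE 0.28, adjusted p = 5.87e-06). In bulk RNA, fewer cells that express a gene and less RNA per cell cannot be told apart, here and in the results that follow.

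H19 is a long non-coding RNA (ENSMUSG00000000031, mm9 chr7:149761434-149764048, minus strand) whose first exon carries the hairpin of miR-675. It held 29.7 and 27 CPM in Phc1-KO, 265 and 98.7 in NPC, and 86.8 and 88 in ESC. The groups did not overlap, but the NPC libraries stood far apart. The difference of NPC from ESC was 1.06 on the log2 scale (SE 0.40, 95% interval 0.12 to 1.99, adjusted p = 0.0516); DESeq2 on all libraries gave 1.05 and passed (adjusted p = 0.0149). Without NPC 2 the difference was 1.61 and passed (adjusted p = 0.000151), and without NPC 1 it was 0.18 (adjusted p = 0.306). H19 was 3.08-fold lower in Phc1-KO than in ESC (-1.62, SE 0.41, adjusted p = 0.0495) and 6.41-fold lower than in NPC (-2.68, SE 0.42, adjusted p = 0.00129). The Phc1-KO calls against ESC were lost for both genes without ESC 1, without ESC 2 and without Phc1-KO 2, with adjusted p of 0.0829 to 0.209 for Igf2 and 0.202 to 0.249 for H19. The H19 call was also lost without Phc1-KO 1 (0.169), with DESeq2 size factors (0.0518) and with no filter (0.0572). The log2 fold changes ranged from -1.39 to -0.74 for Igf2 and from -1.71 to -1.55 for H19 over all 15 alternatives, so the lost calls do not show that the differences went away.

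The ratio of Igf2 to H19 counts within a library does not depend on scaling. It was 0.866 and 0.605 in Phc1-KO, 16.4 and 38 in NPC, and 0.502 and 0.481 in ESC. Igf2 reads thus outnumbered H19 reads in both NPC libraries and in none of the other 4. The mean log2 ratio was 5.67 higher in NPC than in ESC, 0.56 higher in Phc1-KO than in ESC and 5.11 lower in Phc1-KO than in NPC. Each of the 3 differences separated the groups completely, with p = 0.33 in a two-sided exact permutation test, the smallest that 2 against 2 libraries allow; leaving out each library in turn gave 5.06 to 6.27 for NPC against ESC and 0.30 to 0.82 for Phc1-KO against ESC.

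Cdkn1c and Phlda2 lie 40.5 kb apart in the Kcnq1 domain on chromosome 7, where a paternal non-coding transcript silences a group of genes that stay active on the maternal copy. Cdkn1c encodes p57, an inhibitor of cyclin-dependent kinases that restrains growth (ENSMUSG00000037664, mm9 chr7:150644255-150646955, minus strand). It held 58.3 and 50.6 CPM in Phc1-KO, 174 and 194 in NPC, and 36.9 and 39.8 in ESC, with no overlap between groups. Cdkn1c rose 4.8-fold in NPC over ESC (2.26, SE 0.14, adjusted p = 3.58e-05). In Phc1-KO it differed from ESC by 0.51 (SE 0.14, 95% interval 0.18 to 0.84, adjusted p = 0.0622), which passed with DESeq2 (0.0222), in a fit of only the 2 groups (0.0417), without NPC 1 (0.0368) and without NPC 2 (0.0372).

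Phlda2 encodes a small pleckstrin homology domain protein that limits placental growth (ENSMUSG00000010760, mm9 chr7:150687450-150688446, minus strand). It had 27.7 and 24.6 CPM in Phc1-KO, 0.0658 and 0.26 in NPC, from 1 and 4 reads, and 24.8 and 23.7 in ESC. Phlda2 was close to silent in NPC, and the Phc1-KO and ESC libraries overlapped. The difference of Phc1-KO from ESC was 0.11 (95% interval -0.41 to 0.63, adjusted p = 0.785). Phlda2 was 149-fold lower in NPC than in ESC (-7.15, SE 0.37, adjusted p = 1.85e-05) and 160-fold higher in Phc1-KO than in NPC (7.26, SE 0.37, adjusted p = 1.62e-05). These neighbours, an inhibitor of growth each, thus moved in opposite directions in NPC.

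The other listed genes of the Kcnq1 domain, all maternally expressed, went both ways as well. With the pair above, 4 of 12 were higher in NPC than in ESC, 4 were lower and 4 did not pass. Those counts lie near the shares of all genes tested, 30.4% higher and 30.9% lower. Higher were Osbpl5, a lipid transfer protein (61.4 CPM in NPC and 9.01 in ESC, log2 fold change 2.77, SE 0.19), Cd81, a tetraspanin (1.64, SE 0.12), and Tssc4 (0.98, SE 0.22; adjusted p = 0.0546 without ESC 2). Lower were Ascl2, a trophoblast transcription factor (0.163 CPM in NPC and 2.36 in ESC, -3.79, SE 0.41), the transporter Slc22a18 (-2.57, SE 0.34) and the decoy receptor Tnfrsf23 (-1.53, SE 0.33). In Phc1-KO against ESC 1 of 12 was higher, Osbpl5 (16.9 CPM in Phc1-KO and 9.01 in ESC, 0.91, SE 0.18). The 2 lower ones were Ascl2 (-1.68, SE 0.31) and Dhcr7, an enzyme of cholesterol synthesis (-0.78, SE 0.16). Ascl2 had 14 and 15 reads in Phc1-KO. All 3 calls were lost without ESC 1, without ESC 2 and without Phc1-KO 2. Those of Ascl2 and Osbpl5 were also lost without Phc1-KO 1, and that of Ascl2 with DESeq2 on all libraries. Over the 15 alternatives the log2 fold changes ran from 0.82 to 0.93 for Osbpl5, -1.77 to -1.65 for Ascl2 and -0.94 to -0.63 for Dhcr7. Of all genes tested, 4.91% were higher and 5.75% lower in Phc1-KO than in ESC. In Phc1-KO against NPC the shares of all genes were 32.3% higher and 32.7% lower. There 6 of 12 were higher, Phlda2, Ascl2, Tnfrsf23, Slc22a18, Tnfrsf22 and Nap1l4, and 4 were lower, Cdkn1c, Osbpl5, Cd81 and Dhcr7. The calls of Tnfrsf22 (1.04, SE 0.35) and Nap1l4 (0.43, SE 0.16) in that comparison were lost without either NPC or either ESC library, and for Nap1l4 also without Phc1-KO 2 and for Tnfrsf22 without Phc1-KO 1, with adjusted p up to 0.124 for Tnfrsf22 and 0.127 for Nap1l4. Both were lost in a fit of only the 2 groups, Nap1l4 also with no filter, and Slc22a18 (1.48, SE 0.36) with DESeq2 (0.0541).

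Mest encodes a hydrolase-like protein of mesoderm and placenta (ENSMUSG00000051855, mm9 chr6:30673547-30698457, plus strand, 18 exonic blocks). It held 169 and 108 CPM in Phc1-KO, 774 and 1151 in NPC, and 48.9 and 48.9 in ESC. The groups stood in that order of height, NPC above Phc1-KO above ESC, without overlap. Mest rose 19.7-fold in NPC over ESC (4.30, SE 0.29, adjusted p = 4.74e-05) and 2.83-fold in Phc1-KO over ESC (1.50, SE 0.26, adjusted p = 0.0192), and was lower in Phc1-KO than in NPC (-2.80, SE 0.27, adjusted p = 0.000171). The Phc1-KO call against ESC was lost without any 1 of the ESC or Phc1-KO libraries, with log2 fold changes of 1.15 to 1.79 and adjusted p of 0.0636 to 0.138. The strand setting of the counting is not given in the sources used here, and 23.0% of the exonic bases of Mest overlap Copg2 on the other strand. Copg2, which encodes a coat protein of transport vesicles, differed by -0.20 in NPC against ESC (SE 0.16, adjusted p = 0.32) and -0.48 in Phc1-KO against ESC (SE 0.16, adjusted p = 0.105).

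An intron of Mest holds the hairpin of miR-335, which is counted as a gene of its own. Its mature strand is shown with the seed, bases 2 to 8, in capitals (RefSeq, GRCm38.p6, chr6:30741314-30741336, plus strand).
mmu-miR-335-5p: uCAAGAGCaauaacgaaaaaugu
The hairpin gene had 19 and 22 reads in Phc1-KO, 64 and 80 in NPC, and 3 and 4 in ESC. Those are reads of RNA fragments over the hairpin and not of the mature miRNA, which this library type does not measure. The order of the groups was the same as for Mest. The hairpin of miR-675 in H19 had 0 reads in all 6 libraries, and that of miR-483 in Igf2 had 2 and 11 in NPC and 0 in the others; 50-base reads over the miR-675 hairpin lie wholly in the H19 exon as well.

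Peg3 encodes a large zinc finger protein of growth and maternal behaviour (ENSMUSG00000002265, mm9 chr7:6656603-6683132, minus strand). It held 200 and 179 CPM in Phc1-KO, 1983 and 2992 in NPC, and 356 and 360 in ESC. No library of one group overlapped another, and Phc1-KO was the lowest. Peg3 rose 6.95-fold in NPC over ESC (2.80, SE 0.21, adjusted p = 7.36e-05), was 1.89-fold lower in Phc1-KO than in ESC (-0.92, SE 0.20, adjusted p = 0.0353) and 13.1-fold lower in Phc1-KO than in NPC (-3.71, SE 0.22, adjusted p = 2.88e-05). Zim1, a maternally expressed zinc finger gene beside it, had the same signs, with 2.3 CPM in Phc1-KO, 88.5 in NPC and 6.9 in ESC (3.68, SE 0.33 for NPC against ESC; -1.59, SE 0.35 for Phc1-KO against ESC). Usp29, the paternally expressed neighbour, did not pass in any of the 3 comparisons, at 1.62 CPM in Phc1-KO, 1.47 in NPC and 1.74 in ESC. The Phc1-KO calls of Peg3 and Zim1 against ESC were lost without any 1 of the ESC or Phc1-KO libraries, with adjusted p up to 0.217 and 0.221.

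Ndn and Snrpn belong to the Prader-Willi domain, 2208 kb apart on chromosome 7 and both paternally expressed. Ndn encodes necdin, a growth suppressor of postmitotic neurons (ENSMUSG00000033585, mm9 chr7:69493163-69494814, plus strand, 1 exon). It held 33.7 and 33.5 CPM in Phc1-KO, 115 and 201 in NPC, and 16 and 15.9 in ESC. Ndn rose 9.91-fold in NPC over ESC (3.31, SE 0.27, adjusted p = 9.55e-05) and 2.1-fold in Phc1-KO over ESC (1.07, SE 0.26, adjusted p = 0.0434), with no overlap. The call against ESC in Phc1-KO was lost without any 1 of the ESC or Phc1-KO libraries (adjusted p 0.127 to 0.255), with upper-quartile (0.0513) or total-count scaling (0.0577) and with no filter (0.054).

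Snrpn encodes a core protein of spliceosomal particles (ENSMUSG00000000948, mm9 chr7:67127388-67285105, minus strand). It held 154 and 162 CPM in Phc1-KO, 32.6 and 21.6 in NPC, and 155 and 155 in ESC. Unlike Ndn it was lowest in NPC, 5.71-fold lower than in ESC (-2.51, SE 0.20, adjusted p = 9.04e-05) and 5.83-fold higher in Phc1-KO than in NPC (2.54, SE 0.20, adjusted p = 7.7e-05). Phc1-KO and ESC overlapped, with a difference of 0.03 (95% interval -0.42 to 0.48, adjusted p = 0.937) whose sign turned under upper-quartile scaling (-0.01), under total-count scaling (-0.06) and without Phc1-KO 2 (-0.01). In NPC against ESC the other listed paternally expressed genes of the domain went with Ndn. In Phc1-KO against ESC they did not pass, unlike Ndn (Peg12 -0.05, Magel2 0.15 and Mkrn3 -0.18). Peg12, an intronless gene of this domain, stood at 92.4 CPM in NPC and 6.52 in ESC (3.82, SE 0.39), the ubiquitin ligase partner Magel2 at 21.2 CPM in NPC and 4.14 in ESC (2.36, SE 0.23) and Mkrn3, which restrains puberty in humans, at 16.7 CPM in NPC and 9.24 in ESC (0.85, SE 0.20; lost without either ESC library, adjusted p up to 0.123). Ube3a, the maternally expressed ubiquitin ligase of the domain, differed by 0.32 (adjusted p = 0.0608). Of the 6 genes of the domain 4 were higher and 1 lower in NPC than in ESC, against 30.4% and 30.9% of all genes tested. In Phc1-KO 1 was higher and 0 lower than in ESC, against 4.91% and 5.75% of all genes. Compared with NPC, 1 was higher and 4 lower in Phc1-KO, against 32.3% and 32.7% of all genes.

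**Figure D2:**
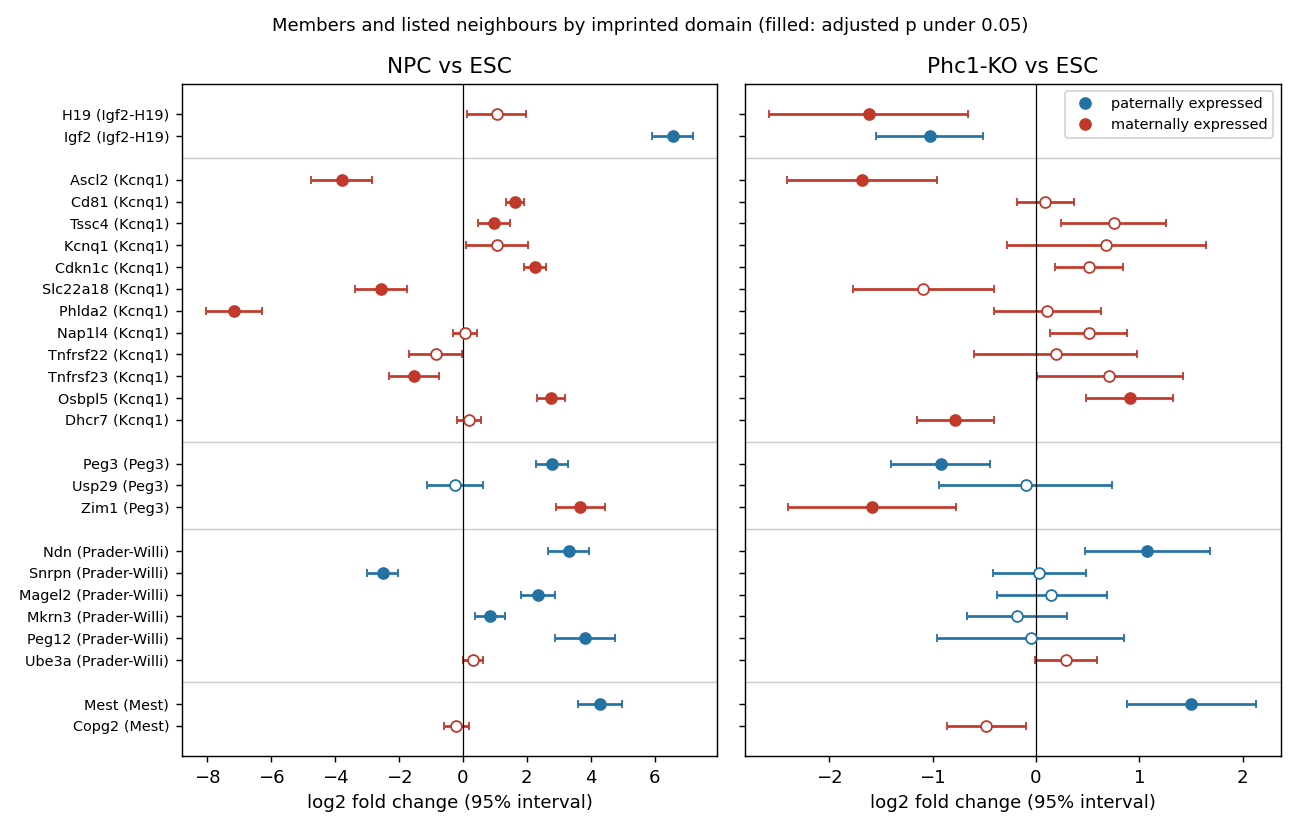
Log2 fold change with its 95% interval for each of the 10 genes that shares a domain with listed imprinted genes, and for those neighbours, in NPC against ESC and Phc1-KO against ESC; filled points passed the adjusted threshold, blue is paternally and red maternally expressed. Within the Kcnq1 domain points lie on both sides of 0 in NPC, from -7.15 for Phlda2 to 2.77 for Osbpl5, and Snrpn at -2.51 stands against the other Prader-Willi genes.

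Impact and Grb10 lie in domains of their own. Impact encodes an inhibitor of the amino acid sensor kinase GCN2 (ENSMUSG00000024423, mm9 chr18:13130761-13151457, plus strand). It held 420 and 451 CPM in Phc1-KO, 182 and 186 in NPC, and 252 and 260 in ESC, without overlap. Impact was 1.7-fold higher in Phc1-KO than in ESC (0.77, SE 0.12, adjusted p = 0.0121) and 2.36-fold higher than in NPC (1.24, SE 0.12, adjusted p = 0.000151). It was lower in NPC than in ESC by a small amount (-0.47, SE 0.12, adjusted p = 0.01). The comparisons with ESC lost the call without ESC 1 or ESC 2, with adjusted p of 0.0906 and 0.119 for NPC and 0.212 and 0.187 for Phc1-KO, which was also lost without Phc1-KO 2 (0.0581).

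Grb10 encodes an adaptor that binds the insulin and insulin-like growth factor receptors and restrains growth (ENSMUSG00000020176, mm9 chr11:11830511-11938686, minus strand). It held 486 and 358 CPM in Phc1-KO, 473 and 580 in NPC, and 354 and 353 in ESC. Both NPC libraries stood above both ESC libraries, and the Phc1-KO libraries lay between the ESC libraries and the higher NPC library. The difference of NPC from ESC was 0.58 (SE 0.18, adjusted p = 0.0275), which did not pass without ESC 1 (0.138), ESC 2 (0.142) or NPC 2 (0.0987) or with upper-quartile scaling (0.0608). Grb10 differed by 0.25 in Phc1-KO from ESC (95% interval -0.17 to 0.68, adjusted p = 0.389) and by -0.32 from NPC (-0.75 to 0.10, adjusted p = 0.155); without Phc1-KO 1 the difference from NPC was -0.54 and passed (0.0341).

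The maternally and paternally expressed genes did not form 2 separate blocks. In NPC against ESC 4 of 6 paternally expressed genes were higher and 2 lower, with a median log2 fold change of 3.05. Of the 4 maternally expressed genes 2 were higher and 1 lower, with a median of 0.82. Among all genes tested 30.4% were higher and 30.9% lower, with a median of -0.01. In Phc1-KO against ESC 3 of 6 paternally expressed genes were higher and 2 lower (median 0.40). Of the 4 maternally expressed genes 0 were higher and 1 lower (median 0.18). Among all genes tested 4.91% were higher and 5.75% lower, with a median of 0.00. At an unadjusted p under 0.05, 2 of the 4 maternally expressed genes differed there, and DESeq2 called Cdkn1c higher. In Phc1-KO against NPC the median was -2.52 for the paternally and -1.04 for the maternally expressed genes, and each class had genes in both directions. Among all genes tested 32.3% were higher and 32.7% lower there. The summed level of the 6 paternally expressed genes was 1003 and 950 CPM in Phc1-KO, 7444 and 8299 in NPC, and 871 and 882 in ESC. Without Igf2 the sums were 977 and 934 CPM in Phc1-KO, 3087 and 4552 in NPC, and 828 and 840 in ESC, so the NPC sum stood above both other groups without it too. The 4 maternally expressed genes summed to 601 and 460 CPM in Phc1-KO, 913 and 873 in NPC, and 503 and 504 in ESC, where Phc1-KO and ESC overlap.

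**Figure D3:**
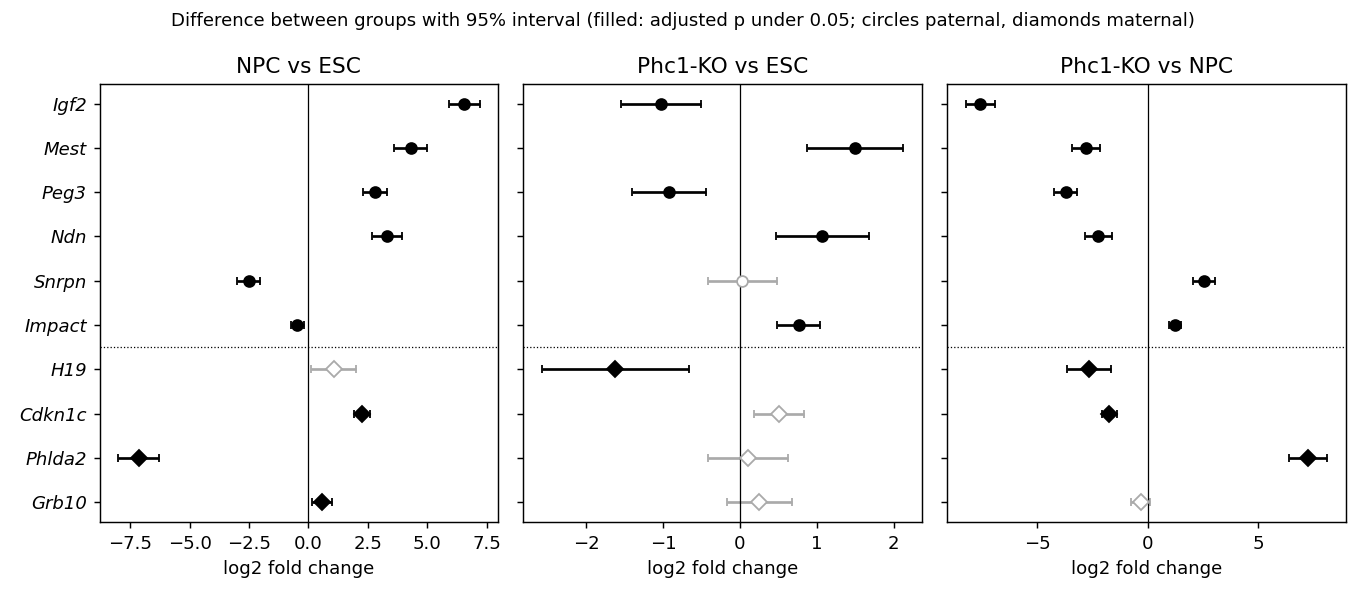
Log2 fold change of each gene with its 95% interval in the panels NPC vs ESC, Phc1-KO vs ESC and Phc1-KO vs NPC; circles are paternally and diamonds maternally expressed, filled where the adjusted p was under 0.05, and the horizontal scales differ between panels. Changes of Phc1-KO against ESC lie between -1.62 and 1.50, while those of NPC against ESC reach -7.15 for Phlda2 and 6.56 for Igf2.

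Levels of different genes were set in order as RPKM, which is CPM divided by the exon length in kilobases. In Phc1-KO the order by mean was Impact at 127, Snrpn at 72, Grb10 at 46, Mest at 35.2, Phlda2 at 34.5, Cdkn1c at 28.2, Ndn at 20.3, Peg3 at 14.2, H19 at 12 and Igf2 at 3.83. Among these neighbours Grb10 and Mest, and Mest and Phlda2, overlapped between libraries. In NPC the order was Igf2 at 738, Mest at 244, Peg3 at 187, Ndn at 95.7, Cdkn1c at 95.2, H19 at 76.8, Grb10 at 57.5, Impact at 53.7, Snrpn at 12.3 and Phlda2 at 0.215. The libraries of every neighbouring pair from Mest to Impact overlapped except Peg3 and Ndn. In ESC the order was Impact at 74.6, Snrpn at 70.5, Grb10 at 38.6, H19 at 36.8, Phlda2 at 32, Peg3 at 26.9, Cdkn1c at 19.9, Mest at 12.4, Ndn at 9.66 and Igf2 at 7.82, and no neighbours overlapped. Impact, Snrpn and Grb10 were thus the top 3 in Phc1-KO and in ESC, and Igf2 was last in both and first in NPC.

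The other listed imprinted genes moved both ways in NPC as well. Among 24 maternally expressed ones tested, 10 were higher and 5 lower in NPC than in ESC (median 0.29). Among 15 paternally expressed ones 8 were higher and 1 lower (median 0.76). The shares of all genes tested were 30.4% higher and 30.9% lower. Without ESC 1, and likewise without ESC 2, 6 of the 24 were higher and 4 lower, and 6 of the 15 were higher and 1 lower. Plagl1, a zinc finger regulator of growth, stood at 564 CPM in NPC and 13 in ESC (5.44, SE 0.30), and Airn, the non-coding RNA that silences Igf2r, at 32.4 CPM in NPC and 2.39 in ESC (3.76, SE 0.28). Sfmbt2, a Polycomb-related gene of the placenta, stood at 6.86 CPM in NPC and 180 in ESC (-4.71, SE 0.19), and the calcitonin receptor Calcr at 0.163 CPM in NPC and 5.3 in ESC (-4.96, SE 0.42), both lower in NPC. In Phc1-KO against ESC 4.91% of all genes tested were higher and 5.75% lower. There 2 of 24 maternally expressed genes were higher and 3 lower, and of 15 paternally expressed ones 0 were higher and 2 lower. For the latter DESeq2 also called 0 higher, and 4 of the 15 had an unadjusted p under 0.05. Besides the neighbours named above, the genes that passed were H13, Sfmbt2 and Sgce. H13, a signal peptide peptidase, stood at 73.2 CPM in Phc1-KO and 45.6 in ESC (0.68, SE 0.13). Sfmbt2 stood at 70.7 CPM in Phc1-KO and 180 in ESC (-1.35, SE 0.16). Sgce, a sarcoglycan chosen after its values were seen, stood at 9.14 CPM in Phc1-KO and 18.7 in ESC (-1.03, SE 0.21). Each of these calls was lost without ESC 1 and without ESC 2, and each but that of Sfmbt2 without Phc1-KO 2, with adjusted p up to 0.304. Against NPC, Phc1-KO was higher in Calcr (5.91, SE 0.41), Sfmbt2 (3.36, SE 0.18) and Tnfrsf23 (2.24, SE 0.33) and lower in Plagl1 (-6.49, SE 0.32), Zim1 (-5.27, SE 0.36) and Airn (-4.46, SE 0.29), the 3 largest changes each way.

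Genes listed as imprint keepers, a list that also holds the de novo methylation cofactor Dnmt3l, were mostly lower in NPC. Of 8 listed, 7 were lower and 1 higher than in ESC, against 30.9% and 30.4% of all genes tested. Trim28 stood at 250 CPM in NPC and 1035 in ESC (-2.05, SE 0.12, adjusted p = 3.04e-05). Zfp57, chosen after its values were seen, stood at 56.9 CPM in NPC and 193 in ESC (-1.77, SE 0.19). Dppa3, which protects methylation in the egg and zygote, had 0 reads in NPC, at least 365-fold lower than in ESC when computed against 3 counts over the group. Dnmt3l, the cofactor of de novo methylation, had 3 reads in NPC, and the ratio of ESC to NPC was 1080 (95% counting interval 369 to 5239). Zfp445, a partner of ZFP57 in imprint keeping, was the 1 higher gene (0.53, SE 0.12; lost without either ESC library, adjusted p up to 0.12). In Phc1-KO against ESC Dppa3 alone of the 8 passed, at 5.76 CPM in Phc1-KO and 35.8 in ESC (-2.63, SE 0.35, adjusted p = 0.0119; up to 0.0798 without an ESC library). Zfp57 differed there by 0.25 (SE 0.18, adjusted p = 0.402). Among all genes tested 10.7% passed there. Against NPC, 7 of 8 were higher in Phc1-KO, where 32.3% of all genes tested were higher.

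Genes that bind, carry or receive insulin-like growth factors were also listed. Of 13 listed, 9 were higher and 3 lower in NPC than in ESC, against 30.4% and 30.9% of all genes tested. The binding proteins Igfbp5 (667 CPM in NPC and 3.68 in ESC, 7.50, SE 0.58), Igfbp3 (2258 CPM in NPC and 113 in ESC, 4.32, SE 0.31) and Igfbp4 (525 CPM in NPC and 35.1 in ESC, 3.90, SE 0.21) rose most. The RNA-binding proteins Igf2bp1 (116 CPM in NPC and 814 in ESC, -2.81, SE 0.27), Igf2bp3 (-0.99, SE 0.13) and Igf2bp2 (-0.60, SE 0.19; lost without NPC 1 or either ESC library, adjusted p up to 0.122) were the 3 lower ones; they bind Igf2 messenger RNA. In Phc1-KO against ESC 4.91% of all genes tested were higher and 5.75% lower. Of the 13, 1 was higher, Igfbp6 (6.91 CPM in Phc1-KO and 1.23 in ESC, 2.49, SE 0.58), and 5 were lower. The 5 were Igfbp3 (-1.50, SE 0.28), Igfbp4 (-1.41, SE 0.20), the receptors Igf1r (-0.97, SE 0.19) and Insr (-0.85, SE 0.14), and Igf2bp2 (-0.86, SE 0.19). Each of these 6 calls was lost without ESC 1, without ESC 2 and without Phc1-KO 2, with adjusted p up to 0.243. Against NPC, Phc1-KO was higher in Igf2bp1 (3.01, SE 0.27) and Igf2bp3 (1.13, SE 0.14) and lower in 9, led by Igfbp5, Igfbp3 and Igfbp4. The shares of all genes tested were 32.3% higher and 32.7% lower.

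Summed levels of markers of other cells were compared between the groups and did not all move the same way. The 15 fibroblast markers summed to 1283 and 1032 CPM in Phc1-KO, 8393 and 12895 in NPC, and 547 and 543 in ESC, and none was at 0 in a group. Of these 13 were higher in NPC than in ESC and 8 in Phc1-KO than in ESC, or 3 without ESC 1, without ESC 2 or without Phc1-KO 2. Among all genes tested, 30.4% were higher in NPC than in ESC and 4.91% in Phc1-KO than in ESC. The collagen gene Col3a1 averaged 61.9 CPM in Phc1-KO, 5468 in NPC and 74.8 in ESC. Col1a1 averaged 97.4 CPM in Phc1-KO, 782 in NPC and 88.8 in ESC, and Col1a2 296 CPM in Phc1-KO, 907 in NPC and 192 in ESC. These 3 did not pass in Phc1-KO against ESC. Larger differences there, chosen after their values were seen, were those of the matrix protein Postn (183 CPM in Phc1-KO and 4.78 in ESC, 38.3-fold; adjusted p = 0.0676 without Phc1-KO 2), the proteoglycan Dcn (37.7 CPM in Phc1-KO and 2.94 in ESC, 12.8-fold) and the receptor Pdgfra (114 CPM in Phc1-KO and 15.5 in ESC, 7.37-fold), of which Dcn and Pdgfra passed in all 15 alternatives. The 5 neural progenitor markers summed to 170 and 144 CPM in Phc1-KO, 2622 and 1035 in NPC, and 162 and 171 in ESC. NPC 1 had the higher neural sum and the lower fibroblast sum. The 8 macrophage markers summed to 26.8 and 20.2 CPM in Phc1-KO, 5.72 and 7.79 in NPC, and 135 and 136 in ESC, and 3 were at 0 in NPC. The 10 endoderm markers summed to 38.4 and 24.1 CPM in Phc1-KO, 29.9 and 83.8 in NPC, and 29.4 and 29.6 in ESC. The 7 neuron markers summed to 195 and 197 CPM in Phc1-KO, 68.3 and 49 in NPC, and 167 and 154 in ESC, and the sum hides opposite changes. Of the 7, 3 were higher and 2 lower in NPC than in ESC, against 30.4% and 30.9% of all genes tested. Among them, chosen after their values were seen, were Dcx (31.5 CPM in NPC and 0.245 in ESC, 128-fold higher) and Stmn2 (1.14 CPM in NPC and 110 in ESC, 96.2-fold lower). The part of these cells in the changes of the imprinted genes was not tested.

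**Figure D4:**
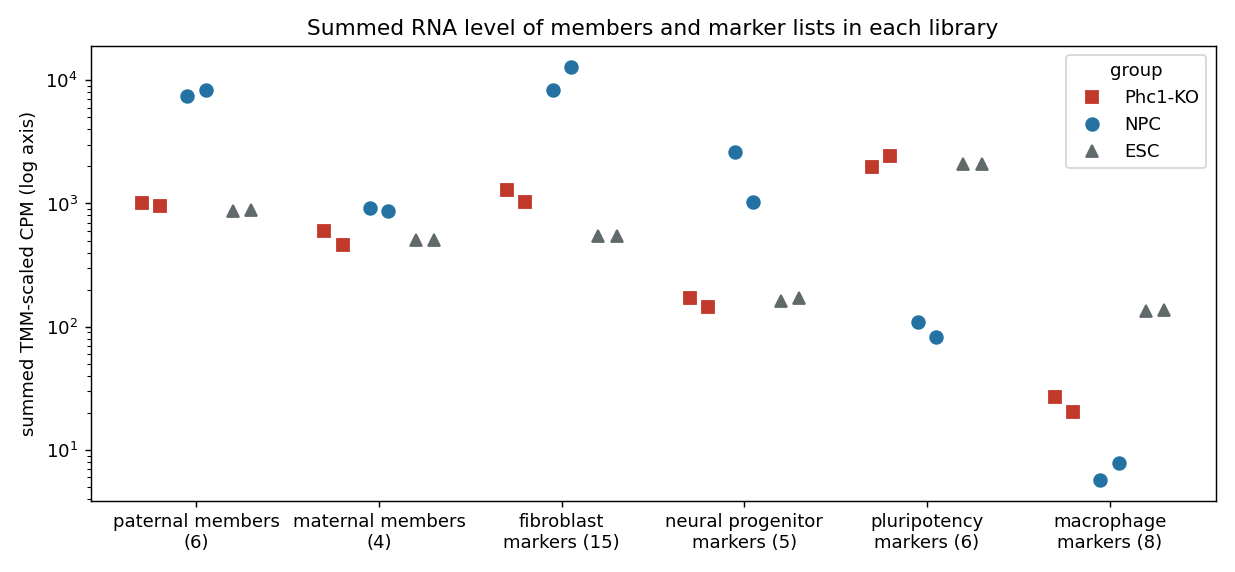
Summed level of the 6 paternally and 4 maternally expressed genes and of 4 marker lists in each library, in TMM-scaled CPM on a log axis; squares are Phc1-KO, circles NPC and triangles ESC. In NPC the paternally expressed genes stand at 7444 and 8299 CPM and the maternally expressed genes at 913 and 873. The fibroblast markers stand there at 8393 and 12895 CPM and the neural progenitor markers at 2622 and 1035. Each of these sums is highest in NPC, and the pluripotency and macrophage sums are lowest there.

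The genes whose pattern over the 6 libraries lay nearest to that of Igf2 were Dock10 at 0.505, Fbn2 at 0.552 and Emid2 at 0.811. Distances were Euclidean, between centred log2 values of CPM plus 0.5, an offset that weighs most at low CPM. Fbn2, a matrix fibrillin, averaged 7.79 CPM in Phc1-KO, 1444 in NPC and 14.9 in ESC, and Dock10, an exchange factor of small GTPases, averaged 0.604 CPM in Phc1-KO, 185 in NPC and 1.69 in ESC. Those of H19 were Rsad2 at 0.482, Cnksr2 at 0.548 and Rnf152 at 0.604. Rsad2, an antiviral protein, averaged 0.484 CPM in Phc1-KO, 5.74 in NPC and 2.48 in ESC. These are descriptions over 6 libraries of 3 groups.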

How the data were processed

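RNA was depleted of ribosomal RNA, made into TruSeq libraries and read as 50-base single ends, per the labels. The authors deposited raw counts per Ensembl gene, without normalization, made with STAR, HTSeq and the mm9 build, per the submitters' processing notes, with tool versions, annotation and strand option not given in the sources used here. The 5 closing tallies of each table were left out; reads in no gene were 0.661 to 1.09 per read in genes. GENCODE M1 (mm9) named 37205 genes and left 415 unnamed; of 121 listed genes 116 were found. The labels call the pairs biological replicates.

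All 6 libraries were fitted together in edgeR 4.0.16 (R 4.3.3; TMM, filterByExpr with minimum count 10 and total 15, 3 residual degrees of freedom). SE is the log2 fold change divided by the square root of F; intervals are 95%. CPM are scaled by TMM and RPKM use union exon length. The SE comes from the fit of all 6 libraries, 2 a group, with a spread shared between groups. Counting intervals cover counting error only. The log2 ratio of Igf2 to H19 used counts plus 0.5. The scripts were run on simulated counts with the same spread in every group, which does not test the unequal spread of the groups here. Alternatives were DESeq2 1.42.0, other scalings and filters, fits of the 2 groups alone, a replicate block, each library left out, and the ESC pair counted as 1.

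All 10 genes are named in every comparison. Of other lists, the 3 largest changes each way that passed and domain neighbours that passed are named. For imprint keepers and the IGF list, all that passed are named where they number up to 6. Markers are named too, of which the first 3 per list were set by rule. Those 3 are given for pluripotency, neural progenitors and fibroblasts. Members and lists were chosen with earlier results of these data known.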

Additional observations from a re-analysis of the deposited data

How the results depend on the processing

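Of 150 values of the 10 genes under alternatives in each comparison, 139 kept direction and side of the threshold in NPC against ESC, 110 in Phc1-KO against ESC and 149 in Phc1-KO against NPC. Called genes in Phc1-KO against ESC numbered 1864 (858 higher, 1006 lower), against 3899 in a fit of only the 2 groups, 145 with the ESC pair counted as 1 library, and 92 to 3715 when single libraries were left out; members called numbered 6, against 0 with the ESC pair as 1 and 0 to 7 when single libraries were left out. Leaving out libraries leaves fewer samples; the cause was not tested further. Total-count scaling called 683 higher and 1223 lower there. The Phc1-KO difference of Snrpn from ESC turned to -0.01 under upper-quartile scaling, -0.06 under total-count scaling and -0.01 without Phc1-KO 2 (main value 0.03), and ranged from -0.01 to 0.07 when single libraries were left out. Replicate numbers did not pair the libraries: deviations of same-numbered libraries correlated at 0.0174, 0.0202 and -0.0207. With the replicate block, 10424 genes were called in NPC against ESC, 1427 in Phc1-KO against ESC and 11061 in Phc1-KO against NPC, and 10, 6 and 9 of the 10 members. H19 in NPC against ESC passed with the block (0.94, adjusted p = 0.0491), and Nap1l4 in Phc1-KO against NPC did not. With 2 libraries a group, p values rest on a spread shared between groups, and Phlda2 in NPC rests on 1 and 4 reads.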
